A study of Homo sapiens with 10 samples.

Results

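The genes described here encode the ligands and receptors of the tumor necrosis factor (TNF) superfamily in 2 established human lung cancer cell lines, H460 and A549. They were chosen by name, as the protein-coding genes with a TNFSF or TNFRSF symbol together with FAS, FASLG, CD27, CD40, CD70, LTBR, NGFR, TNF, LTA and LTB. This gave 43 members among 46427 listed genes, of which 19672 were protein-coding. Poly(A) RNA of 10 cultures was sequenced, 8 of H460 and 2 of A549. Untreated H460 cells in two-dimensional (2D) culture with serum, named parental, gave 3 libraries. Drug-resistant H460 cells were those still alive after 3 days with a drug and 3 days in drug-free medium, so they are survivors of 1 exposure and not selected lines. They comprised 1 library of cisplatin-resistant (CR, 4 µM), 2 of paclitaxel-resistant (PR, 5 nM) and 1 of doxorubicin-resistant (DR, 0.5 µM) cells. Tumor spheroid (TS) cells, which the labels call CTC, were passaged at least 3 times in suspension in serum-free medium with B27, bFGF and EGF, and gave 1 library of each line. Untreated A549 cells in 2D culture gave 1 library. TS and 2D cultures therefore differed in attachment, serum and growth factors together, and these cannot be told apart. The sources used here do not say whether replicates came from separate cultures, so p-values measure only the spread between these libraries.

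TNF superfamily ligands are mostly trimeric membrane proteins that cluster their receptors on a neighboring cell. Receptors with a cytoplasmic death domain, such as FAS, TNFRSF1A and the TRAIL receptors TNFRSF10A and TNFRSF10B, recruit FADD or TRADD and can activate caspase-8, whereas decoy receptors bind the same ligands without passing on a death signal. The other receptors bind TRAF adaptors and lead mainly to NF-kappaB and kinase signaling, and most of their ligands are known from lymphocytes and antigen-presenting cells.

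Of the 43 members, 20 reached 1 FPKM (fragment counts scaled by transcript length and library size) in at least 1 library. These were 5 of 7 death-domain receptors, 2 of 4 decoy receptors, 7 of 15 other receptors, 1 of 5 ligands of death receptors and 5 of 12 other ligands. The receptors TNFRSF1A, TNFRSF10B and TNFRSF12A and the ligand CD70 had the highest FPKM in parental cells, where each was at 34.0 FPKM or more in every library. Of the ligands of death receptors, TNFSF15 was the 1 that reached 1 FPKM. TNF had a count of 0 in all parental libraries and at most 10 counts in any library, FASLG had 2 counts in CR cells and 0 elsewhere, the TRAIL gene TNFSF10 had at most 8 counts in H460 cells and 142 in A549 TS cells, and LTA had at most 107 counts, in a PR library.

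The other 23 members stayed under 1 FPKM in every library, with a highest value of 0.927 FPKM for TNFSF10 in A549 TS cells. They were the death-domain receptors NGFR and TNFRSF25, the decoy receptors TNFRSF10C and TNFRSF6B, the receptors TNFRSF4, TNFRSF8, TNFRSF9, TNFRSF13B, TNFRSF13C, TNFRSF17, TNFRSF18 and CD27, and the ligands TNF, LTA, LTB, FASLG, TNFSF8, TNFSF10, TNFSF11, TNFSF12-TNFSF13, TNFSF13, TNFSF13B and TNFSF14. TNFRSF17, a receptor of plasma cells, had 0 counts in all 10 libraries. The heatmap of members by library shows the 20 members that reached 1 FPKM.

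**Figure D1:**
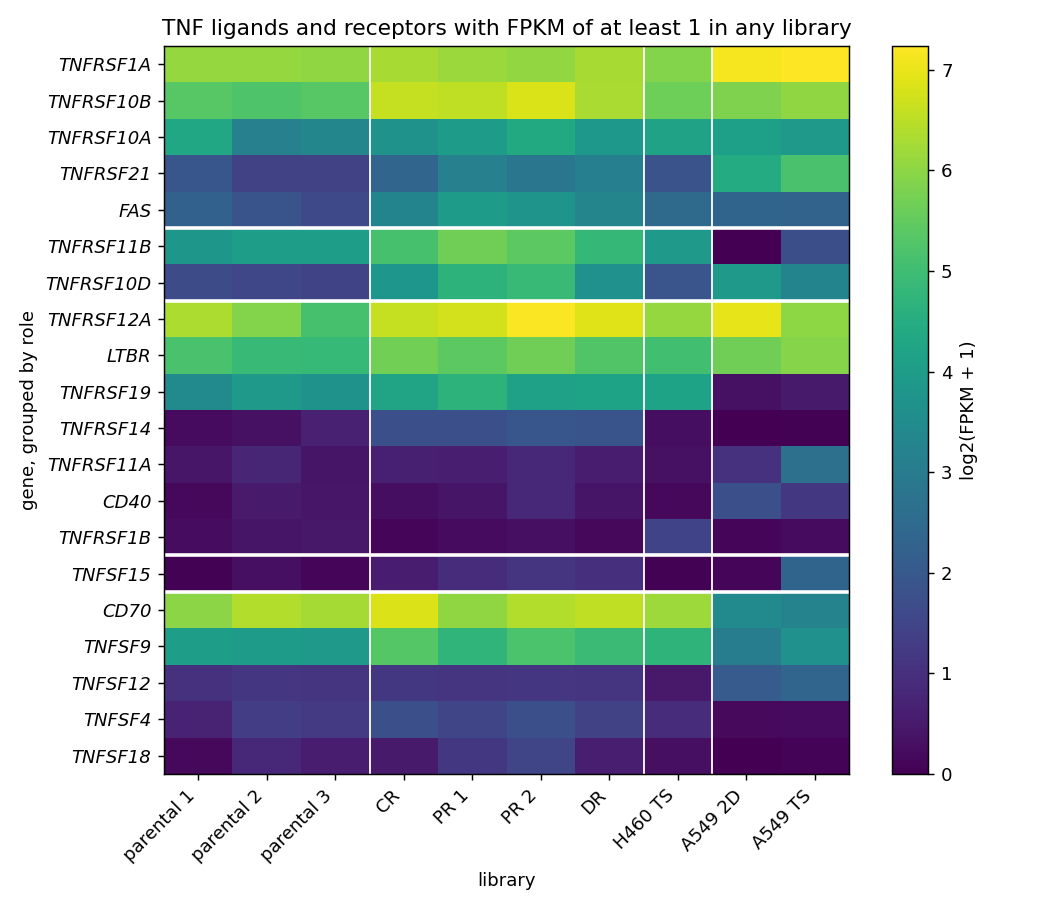
Level of the 20 members that reached 1 FPKM, as log2(FPKM + 1), with genes in rows grouped by role and the 10 libraries in columns. White lines separate the roles and the groups of libraries. TNFRSF10D, FAS and TNFRSF14 were higher in each CR, PR and DR library than in each parental library, and TNFRSF19 and CD70 were lower in both A549 libraries than in each H460 library.

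The members took between 0.0764% and 0.0816% of all gene counts in parental libraries and between 0.126% and 0.160% in drug-resistant libraries. Their FPKM summed to between 303.2 and 354.3 in parental and between 527.5 and 634.1 in drug-resistant libraries. Gene counts totaled 59499787 to 89541774 per library, with a median of 71656787. The number of genes with 1 to 20 counts was 6061 to 6188 in parental, 6819 in CR, 8571 and 8842 in PR, and 9939 in DR libraries. This number moved with the members under 1 FPKM that were higher in PR and DR cells, and its part in those values was not tested. Epithelial keratins were abundant (KRT8 at least 282.7 FPKM in every library), but EPCAM was at most 0.114 FPKM and CDH1 at most 0.0266 FPKM in H460 cells. The lung markers NKX2-1, SFTPB and SFTPC were at most 0.139 FPKM in both lines.

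Markers of other cell types were measured beside the members. Summed over 7 immune markers, the FPKM was 17.8 to 26.4 in parental and 42.9 to 72.6 in drug-resistant libraries, and 2 of the 3 tested were higher, namely CD68 and NCAM1. The defining markers PTPRC, CD3E and MS4A1 were at 0 in parental libraries and at most 0.157 FPKM elsewhere. Summed over 5 fibroblast markers, the FPKM was 1.29 to 6.00 in parental and 6.05 to 19.6 in drug-resistant libraries, with 2 of 4 tested higher. Summed over 4 endothelial markers it stayed at or under 0.148 FPKM in both groups, where the 1 marker tested was higher. In TS cells the immune sum was 31.5 FPKM in H460 and 79.9 FPKM in A549, against 21.9 FPKM in A549 2D cells. The fibroblast sum was 28.3 FPKM in H460 TS cells, and the endothelial sum was 0.484 and 0.400 FPKM in H460 and A549 TS cells, above the 2D libraries of each line. Their part in the results below was not tested.

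Since several members moved together in drug-resistant cells, the promoters of 4 of them are shown here, chosen as examples of a death receptor, a TRAF-binding receptor and 2 ligands. The RefSeq promoter table (GRCh38.p14) held 28 of the 43 members. Each sequence is the 250 bases before the start, 5′ to 3′ on the strand of the gene, with matches in capitals, and positions are counted backward from the start. The starts used for FAS, TNFRSF14 and TNFSF15 lie inside the gene spans given with their values, so these windows precede an internal start and not the outermost one. Searched on both strands were the AP-1 motif TGANTCA, the GC box GGGCGG, the TATA box TATAAA, the NF-kappaB consensus and the p53 half-site. The FAS promoter, chr10:88990548-88990797 on the plus strand, is the first of 3 in the table, with an AP-1 match at -242 to -236 and a GC box at -60 to -55. The TNFRSF14 promoter, chr1:2556121-2556370 on the plus strand, holds 2 overlapping NF-kappaB matches at -85 to -76 and -84 to -75. The TNFSF15 promoter, chr9:114792531-114792780 on the minus strand, holds a p53 half-site at -175 to -166 and an AP-1 match at -120 to -114. The TNFSF9 promoter, chr19:6530776-6531025 on the plus strand, holds GC boxes at -88 to -83 and -68 to -63 and a TATA box at -30 to -25.
FAS: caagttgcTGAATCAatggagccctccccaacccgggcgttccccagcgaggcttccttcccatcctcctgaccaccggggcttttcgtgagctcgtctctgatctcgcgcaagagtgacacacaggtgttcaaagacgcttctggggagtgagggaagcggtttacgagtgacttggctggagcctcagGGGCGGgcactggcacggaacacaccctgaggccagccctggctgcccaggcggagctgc
TNFRSF14: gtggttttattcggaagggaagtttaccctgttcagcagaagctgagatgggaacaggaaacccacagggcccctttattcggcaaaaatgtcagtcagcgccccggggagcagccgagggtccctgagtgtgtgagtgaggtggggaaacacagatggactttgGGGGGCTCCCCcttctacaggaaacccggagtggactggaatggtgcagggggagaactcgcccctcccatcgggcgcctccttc
TNFSF15: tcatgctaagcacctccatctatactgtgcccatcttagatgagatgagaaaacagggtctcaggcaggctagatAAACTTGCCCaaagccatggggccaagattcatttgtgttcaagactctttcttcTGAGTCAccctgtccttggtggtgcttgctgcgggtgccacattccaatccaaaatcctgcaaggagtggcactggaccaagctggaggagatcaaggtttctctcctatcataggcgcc
TNFSF9: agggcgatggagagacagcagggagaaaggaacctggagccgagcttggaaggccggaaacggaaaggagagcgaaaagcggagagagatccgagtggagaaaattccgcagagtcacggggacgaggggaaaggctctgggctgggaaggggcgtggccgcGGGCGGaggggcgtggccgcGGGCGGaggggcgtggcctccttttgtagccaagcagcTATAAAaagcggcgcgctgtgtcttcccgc

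Of the 28 member promoters, 5 held the AP-1 motif, against 6.6% of 27305 promoters of the same length. The GC box was in 16 of the 28 (42.3% of all), the TATA box in 4 (11.1%), the NF-kappaB consensus in 4 (6.6%) and the p53 half-site in 2 (5.53%). A match describes the letters only, and binding was not measured.

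The first comparison asked which members differed between drug-resistant and parental H460 cells, with the 4 drug-resistant libraries as 1 group. Several death receptors and decoy receptors rose, and in bulk RNA a change in the cells present and a change in RNA per cell cannot be told apart. The TRAIL decoy TNFRSF10D was 8.92-fold higher, the receptor TNFRSF14 7.64-fold, FAS 3.51-fold, TNFRSF21 2.87-fold, the secreted decoy TNFRSF11B 2.40-fold and the TRAIL death receptor TNFRSF10B 2.23-fold. The ligands TNFSF15 and TNFSF9 were 6.69-fold and 2.03-fold higher. Without parental replicate 2 the log2 fold change of TNFSF15 was 3.44 in place of 2.74, and without parental replicate 3 that of TNFRSF14 was 3.52 in place of 2.93. By the quasi-likelihood test of edgeR on the counts, with p-values adjusted over all genes, 14 of 32 members tested were higher and 1 was lower. Of all 18398 genes tested, 33.8% passed the threshold of 0.05, 18.5% as higher and 15.3% as lower. The median log2 fold change was 1.09 over the 32 members and 0.06 over all genes tested. The other 11 members did not pass the filter on low counts, and some low members passed it through the drug-resistant libraries alone. The 1 lower member, TNFRSF13C, passed it through the parental libraries. These counts and the members' median therefore describe the members tested, and the median is no separate support. In FPKM, 18 of all 43 members lay above every parental library in every drug-resistant library, compared with 12.1% of all genes listed, and 2 lay below, compared with 5.74%.

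Among death-domain receptors, 4 of 7 were called higher, beside 18.5% of all genes tested. Of these 4, NGFR passed the filter through the drug-resistant libraries alone. FAS, the receptor of FAS ligand (gene at chr10:88964050-89017059), was at 3.76, 2.70 and 2.04 FPKM in the parental libraries. It was at 8.56 FPKM in CR, 14.8 and 12.5 in PR, and 8.90 in DR cells, and the groups did not overlap. The mean rose from 2.83 ± 0.87 FPKM (SD, n = 3) to 11.2 ± 3.01 (SD, n = 4), and the log2 fold change of the counts was 1.81 with an SE of 0.26 (edgeR adjusted p = 0.000804). ACTA2, which overlaps FAS in the annotation, was also higher, at 5.84 to 10.1 FPKM in parental and 27.3 to 33.3 FPKM in drug-resistant libraries. How reads shared by the 2 genes were counted is not given in the sources used here.

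TNFRSF10B, known as DR5, was at 39.8, 37.2 and 40.0 FPKM in parental libraries. It was at 95.3 FPKM in CR, 93.1 and 112.04 in PR, and 78.9 in DR cells, so that the lowest drug-resistant value was well above the highest parental one. The log2 fold change was 1.16 with an SE of 0.19 (edgeR adjusted p = 0.00148). TNFRSF10A, known as DR4, binds the same ligand. It was at 18.7, 7.92 and 8.96 FPKM in parental libraries and at 12.1, 14.9, 19.9 and 13.6 FPKM in CR, PR and DR libraries. Parental replicate 1 overlapped the drug-resistant range, and the log2 fold change of 0.22 did not pass the test (edgeR adjusted p = 0.59). TNFRSF10A, TNFRSF10B, TNFRSF10C and TNFRSF10D are related neighbors on chromosome 8, and reads that fit more than 1 of them are a limit of each value.

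TNFRSF21, known as DR6 (chr6:47231532-47309905), was at 2.86, 1.71 and 1.63 FPKM in parental libraries. It was at 4.12 FPKM in CR, 7.84 and 6.23 in PR, and 7.71 in DR cells, with a log2 fold change of 1.52 and an SE of 0.28 (edgeR adjusted p = 0.0028). CR cells had the lowest of the drug-resistant values, still above all parental ones. TNFRSF1A, the widely expressed TNF receptor (chr12:6328771-6342076), was the most abundant death-domain receptor in parental cells. Its level was 66.6 ± 1.54 FPKM (SD, n = 3) in parental and 72.5 ± 5.51 FPKM (SD, n = 4) in CR, PR and DR cells, and the log2 fold change was 0.01 (edgeR adjusted p = 0.956). NGFR, the low-affinity neurotrophin receptor, had 15, 6 and 4 counts in parental and 11, 51, 81 and 43 in CR, PR and DR libraries (edgeR adjusted p = 0.0352), and the call was lost without parental replicate 2 or 3 or either PR library and with the form of library name as a term, at up to an edgeR adjusted p of 0.12. TNFRSF25, a receptor of T cells, had 2 to 17 counts in parental and 17 to 38 in drug-resistant libraries (edgeR adjusted p = 0.081).

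Among decoy receptors, 3 of 4 were called higher, beside 18.5% of all genes tested. Of these 3, TNFRSF10C had 0 counts in parental libraries and passed the filter through the drug-resistant libraries alone. TNFRSF10D, a membrane-bound decoy for TRAIL, was at 2.18, 1.93 and 1.81 FPKM in parental libraries. It was at 12.8 FPKM in CR, 24.9 and 28.5 in PR, and 11.6 in DR cells, the largest fold change among members with counts in every library. The log2 fold change was 3.16 with an SE of 0.31 (edgeR adjusted p = 0.000199). The ratio of TNFRSF10D to TNFRSF10B in FPKM was 0.0546, 0.0518 and 0.0452 in parental libraries. It was 0.135 in CR, 0.267 and 0.254 in PR, and 0.148 in DR libraries, higher in all 4 than in any parental library. TNFRSF11B, the secreted decoy osteoprotegerin that binds RANKL and TRAIL, was at 13.2, 15.2 and 15.4 FPKM in parental libraries. It was at 34.3 FPKM in CR, 49.8 and 41.6 in PR, and 27.3 in DR cells, with no overlap and a log2 fold change of 1.26 with an SE of 0.21 (edgeR adjusted p = 0.00159). TNFRSF10C, a lipid-anchored TRAIL decoy, had 0 counts in all parental libraries and 3, 21, 13 and 14 in CR, PR and DR libraries (edgeR adjusted p = 0.00827). Their mean was at least 3.81-fold higher over a floor of 3 counts per library, which the CR library did not exceed. The noncoding gene LOC254896, which overlaps TNFRSF10C, was at 0.449 to 0.787 FPKM in parental and 1.27 to 2.37 FPKM in drug-resistant libraries. How reads shared by these genes were counted is not given in the sources used here. TNFRSF6B, the soluble decoy for FAS ligand, had 7 to 12 counts in parental, 76 in CR, 3 and 3 in PR and 15 in DR libraries (edgeR adjusted p = 0.385).

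**Figure D2:**
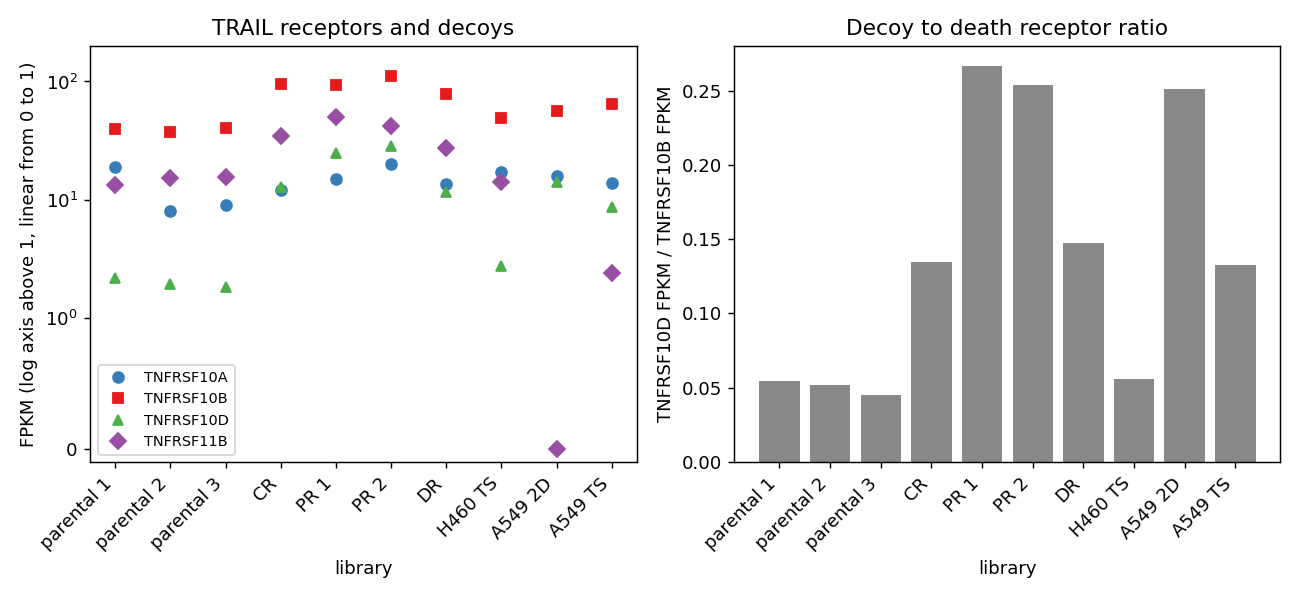
Left, FPKM of the TRAIL receptors TNFRSF10A and TNFRSF10B and the decoys TNFRSF10D and TNFRSF11B in each of the 10 libraries, on an axis that is linear up to 1 and logarithmic above. Right, bars of the ratio of TNFRSF10D to TNFRSF10B in FPKM, 1 per library, which stayed at or under 0.0556 in parental and H460 TS libraries and was at least 0.132 in the others.

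Among the other receptors, 3 of 11 tested were called higher and 1 lower, a share close to the 33.8% of all genes tested. TNFRSF14, the herpesvirus entry mediator that binds TNFSF14 (chr1:2554234-2563829), was at 0.161, 0.241 and 0.594 FPKM in parental libraries. It was at 2.41 FPKM in CR, 2.37 and 2.82 in PR, and 2.67 in DR cells, a narrow range among the drugs. The log2 fold change was 2.93 with an SE of 0.39 (edgeR adjusted p = 0.000583), and the antisense gene TNFRSF14-AS1 was listed at 0 in all of these libraries. TNFRSF12A, the TWEAK receptor Fn14 (chr16:3020368-3022383), was at 80.1, 58.9 and 34.0 FPKM in parental and 96.2, 105.8, 146.7 and 117.9 FPKM in CR, PR and DR libraries. Its log2 fold change of 0.91, with an SE of 0.26, passed the test (edgeR adjusted p = 0.0232), but not without parental replicate 2, parental replicate 3 or PR replicate 2, or with the form of library name as a term, at up to an edgeR adjusted p of 0.0813. TNFRSF19, known as TROY (chr13:23570412-23676093), was at 10.0, 14.0 and 12.1 FPKM in parental and 17.6, 24.8, 16.6 and 17.2 FPKM in CR, PR and DR libraries. Its log2 fold change of 0.59, with an SE of 0.20, was close to the threshold (edgeR adjusted p = 0.0442), and the call was lost in 8 of 13 alternatives, which included each parental library, CR, PR replicate 1 and DR left out, at up to an edgeR adjusted p of 0.164.

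TNFRSF13C, the BAFF receptor of B cells, fell from 36, 42 and 49 counts in parental to 12, 0, 6 and 14 in CR, PR and DR libraries (edgeR adjusted p = 0.0252). It passed the filter on low counts through the parental libraries, where it was high. Its call therefore describes the counts given and is no separate support. Without any 1 of the parental libraries or PR replicate 2 this call was lost, at up to an edgeR adjusted p of 0.0851. LTBR, the lymphotoxin beta receptor (chr12:6375160-6391566), was at 34.6, 28.3 and 27.6 FPKM in parental and 50.5, 41.5, 49.9 and 37.3 FPKM in CR, PR and DR libraries. These did not overlap, yet the log2 fold change of the counts was 0.46 and did not pass the test (edgeR adjusted p = 0.0855), whereas limma on log2(FPKM + 1) gave an adjusted p of 0.0361. TNFRSF1B, the TNF receptor of immune cells, was at 0.188 to 0.393 FPKM in parental and 0.0676 to 0.226 FPKM in drug-resistant libraries (edgeR adjusted p = 0.0553, DESeq2 adjusted p = 0.0346). CD40 and TNFRSF11A, the receptors of CD40 ligand and RANKL, overlapped between the groups and were at most 0.794 FPKM in all 7 libraries. TNFRSF8 and TNFRSF9, known as CD30 and 4-1BB, and CD27 did not pass the test of edgeR either, with adjusted p of 0.0549, 0.0522 and 0.366, whereas DESeq2 called TNFRSF9 (adjusted p = 0.0313).

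Among ligands, TNFSF15 was the 1 ligand of a death receptor that could be tested. TNFSF15, known as TL1A, binds TNFRSF25 (chr9:114784635-114806039). It was at 0.0342, 0.227 and 0.103 FPKM in parental and 0.483, 0.874, 1.17 and 0.965 FPKM in CR, PR and DR libraries. Every drug-resistant value was above the parental ones, and the log2 fold change was 2.74 with an SE of 0.53 (edgeR adjusted p = 0.00364). TNFSF9, the 4-1BB ligand that costimulates T cells (chr19:6531026-6535924), was at 15.6, 15.1 and 13.7 FPKM in parental libraries. It was at 39.0 FPKM in CR, 25.4 and 35.8 in PR, and 29.3 in DR cells, with a log2 fold change of 1.02 and an SE of 0.20 (edgeR adjusted p = 0.00433). TNFRSF9, its receptor, had 6, 0 and 0 counts in parental and 3, 34, 26 and 22 in CR, PR and DR libraries.

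CD70, the CD27 ligand (chr19:6581648-6591150), was the most abundant ligand, at 62.5, 83.3 and 76.0 FPKM in parental libraries. It was at 114.9 FPKM in CR, 64.6 and 83.6 in PR, and 91.9 in DR cells, which overlapped, and the log2 fold change was 0.28 (edgeR adjusted p = 0.367). TNFSF4, the OX40 ligand, was at 0.648 to 1.47 FPKM in parental and 1.69 to 2.41 FPKM in drug-resistant libraries without overlap. Its counts were 383, 677 and 800 in parental and 806, 883, 710 and 793 in CR, PR and DR libraries, which overlapped, with a log2 fold change of 0.21 (edgeR adjusted p = 0.562), so the FPKM and the counts differed here. TNFSF12, known as TWEAK, was at 1.12 ± 0.09 FPKM (SD, n = 3) in parental and 1.17 ± 0.06 FPKM (SD, n = 4) in drug-resistant cells (edgeR adjusted p = 0.879). TNFSF18, the GITR ligand, ranged from 0.113 to 0.776 FPKM in parental and from 0.444 to 1.86 FPKM in drug-resistant libraries (edgeR adjusted p = 0.251).

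TNFSF14, the ligand LIGHT that binds TNFRSF14 and LTBR, had 0 counts in the parental libraries. It had 4 counts in CR, 125 and 252 in PR, and 19 in DR cells (edgeR adjusted p = 0.0132), at least 33.9-fold higher over the floor of 3 counts per library, and the PR libraries carried most of this. TNFSF13B, the B cell factor BAFF, had 7, 0 and 0 counts in parental and 11, 47, 39 and 16 in CR, PR and DR libraries (edgeR adjusted p = 0.0332), and this call was lost without parental replicate 2 or 3 or either PR library, at up to an edgeR adjusted p of 0.117. TNFSF13, known as APRIL, and TNFSF12-TNFSF13, a readthrough gene that overlaps both TNFSF12 and TNFSF13, were not called, with edgeR adjusted p of 0.127 and 0.363.

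**Figure D3:**
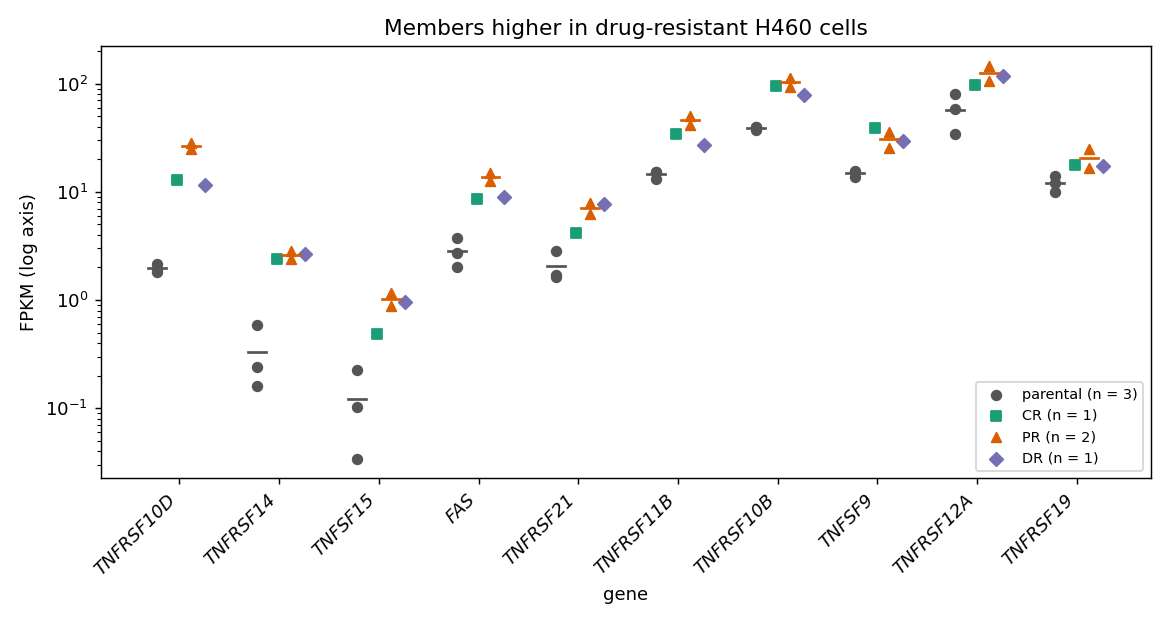
FPKM on a log axis of the 10 members that reached 1 FPKM and were called higher in drug-resistant H460 cells by edgeR on the counts. Each library is 1 point, and short lines give the means of parental (n = 3) and PR (n = 2) libraries. CR, PR and DR points lie above all parental points for each gene, by the widest margin for TNFRSF10D and the narrowest for TNFRSF12A and TNFRSF19. LTBR and TNFSF4, which are not shown, also lay above in FPKM but were not called on the counts.

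The calls of TNFRSF10D, FAS, TNFRSF14, TNFRSF10B, TNFRSF11B, TNFRSF21 and TNFSF9 held in all 13 alternatives, and that of TNFSF15 in the 12 in which it was tested. TNFRSF10C and TNFSF14, at 0 counts in parental libraries, and TNFSF13B and NGFR passed the filter through the drug-resistant libraries alone, so their calls describe the counts given and are no separate support. TNFRSF10C and TNFSF14 could not be tested with limma, without either PR library or without DR, since they then did not pass the filter. The library names take 2 forms, whose meaning is not given in the sources used here, with 1 parental, CR, DR and 1 PR library in one and 2 parental and 1 PR library in the other. Within these forms the difference of mean log2(FPKM + 1) was 2.56 and 3.11 for TNFRSF10D, 1.55 and 2.06 for FAS, 1.32 and 1.20 for TNFRSF10B, and 1.10 and 1.74 for TNFRSF11B. For TNFRSF19 it was 0.28 and 1.10.

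The signaling genes behind the receptors were compared from 2 lists. Of 13 death-signaling genes tested, 1 was higher and 0 were lower, with a median log2 fold change of 0.08. The 1 that rose was CFLAR, the inhibitor c-FLIP that competes with caspase-8 at FADD. CFLAR was at 5.32, 6.67 and 7.29 FPKM in parental and 10.4, 17.9, 22.9 and 11.7 FPKM in CR, PR and DR libraries (edgeR adjusted p = 0.000922). CASP8 itself was at 15.2 to 20.7 FPKM in parental and 17.8 to 24.4 FPKM in drug-resistant libraries and was not called, and RIPK3, the kinase of necroptosis, had 0 counts in all 10 libraries. Of 28 genes of the NF-kappaB branch, 10 were higher and 1 was lower, beside 18.5% higher and 15.3% lower of all genes tested, with a median log2 fold change of 0.39. RELB, a subunit of the noncanonical pathway, rose by a log2 fold change of 2.34 (edgeR adjusted p = 0.00254), BIRC3, an inhibitor of apoptosis, by 2.31 (edgeR adjusted p = 0.0138), and the adaptor TRAF1 by 2.11 (edgeR adjusted p = 0.00469). BIRC3 was at 1.13, 1.01 and 0.545 FPKM in parental, 1.14 in CR and 2.38 in DR libraries. It was at 6.93 and 9.51 FPKM in PR libraries, which carried most of its rise. The inhibitors TNFAIP3 and NFKBIA both had a log2 fold change of 1.49 (edgeR adjusted p = 0.0084 and 0.0154), and the adaptor TRAF5 fell by 1.03 on the log2 scale (edgeR adjusted p = 0.00289).

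PR cells, the one drug with 2 libraries, were then compared with the same 3 parental libraries, so the values are not independent of those above. By edgeR, 16 of 35 members tested were higher and 1 was lower, and 28.1% of 19430 genes tested passed, 17.5% as higher and 10.6% as lower. The median log2 fold change was 1.41 over the members and 0.05 over all genes tested. The members' median includes low genes that passed the filter through the PR libraries alone. It therefore describes the members tested and is no separate support. TNFRSF10D had a log2 fold change of 3.52 (SE 0.24, edgeR adjusted p = 0.000294), FAS of 2.02 (SE 0.29, edgeR adjusted p = 0.00267), TNFRSF14 of 2.85 (SE 0.49, edgeR adjusted p = 0.00457) and TNFRSF11B of 1.41 (SE 0.24, edgeR adjusted p = 0.00422). These 4 calls held in all 12 alternatives, with TNFRSF14 at 3.48 without parental replicate 3. TNFRSF10B and TNFSF15 were called at log2 fold changes of 1.15 and 2.86 and lost the call without PR replicate 2, at an edgeR adjusted p of 0.108 and 0.0778, and TNFRSF21 at 1.54 lost it without PR replicate 1, at 0.0718. Without parental replicate 2 the log2 fold change of TNFSF15 was 3.58. TNFSF9 was called at 0.81 and lost the call without parental replicate 2, either PR library or the filter on low counts, at up to an edgeR adjusted p of 0.333. Without PR replicate 1 or PR replicate 2 there were 9 calls each, in place of 17, and in these fits the spread came from the 3 parental libraries alone, so the lone PR library is assumed to vary like them.

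LTA and TNFSF14 had more counts in the PR libraries than in any other H460 library. LTA, which encodes lymphotoxin alpha, a ligand of TNFRSF1A and TNFRSF1B, had 0 counts in parental libraries and 51 and 107 in PR libraries, at least 27.2-fold higher over the floor. CR and DR cells had 5 and 2 counts of LTA. TNFSF14 was at least 64.9-fold higher in PR cells. Both bounds use the mean of the PR libraries, which differed, with 125 and 252 counts of TNFSF14. For PR replicate 1 alone, the lower of the pair for both genes, each bound would be smaller. The RANKL gene TNFSF11 had 14 and 15 counts, and the GITR gene TNFRSF18 had 13 and 10, each against 0 in parental libraries. These 4 genes, and TNFRSF9, NGFR, TNFSF13B and TNFRSF10C, entered the test through the PR libraries alone, so that their calls describe the counts given and are no separate support. TNFRSF9, NGFR, TNFSF13B and TNFRSF10C were also called higher in PR cells, at no more than 81 counts in a PR library, and TNFRSF13C was lower. TNFRSF13C entered the test through the parental libraries alone, so its call is no separate support either. Of these low genes, NGFR and TNFRSF10C lost the call without PR replicate 2, TNFSF11 without PR replicate 1, TNFRSF13C without parental replicate 2 or PR replicate 1, and TNFRSF9 and TNFSF13B without parental replicate 2 or either PR library, at edgeR adjusted p of up to 0.205.

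PR cells were compared with CR and DR cells to see whether the microtubule drug and the DNA-damaging drugs differed. By edgeR, 0 of 36 members and 0 of 19770 genes (0%) passed, with 7 members and 2479 genes at an unadjusted p under 0.05. DESeq2 called 3 members, TNFSF14, LTA and TNFRSF10D, with adjusted p of 3.76e-05, 0.00363 and 0.0297, and limma on log2(FPKM + 1) called TNFRSF10D, with an adjusted p of 0.0435. The edgeR log2 fold change of TNFRSF10D was 0.94 with an SE of 0.21 (adjusted p = 0.162), and that of CD70 was -0.59 with an SE of 0.25 (adjusted p = 0.367). TNFRSF10B had a log2 fold change of 0.05 with an SE of 0.23 (edgeR adjusted p = 0.956).

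No test was made for CR or DR cells, with a single library of each, and members over 2-fold from the parental mean of log2(FPKM + 1) were counted. In CR cells 6 of 43 members were over 2-fold higher, compared with 1.59% of all genes listed, and 0 were lower, compared with 1.92%. They were TNFRSF10D, TNFRSF14, FAS, TNFSF9, TNFRSF10B and TNFRSF11B, with log2 differences of 2.22, 1.37, 1.34, 1.34, 1.27 and 1.18. In DR cells 5 members were over 2-fold higher, compared with 1.57% of all genes listed, and 0 were lower, compared with 1.55%. They were TNFRSF10D, TNFRSF21, TNFRSF14, FAS and TNFRSF12A, with log2 differences of 2.09, 1.53, 1.48, 1.39 and 1.10.

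TS cells were compared with 2D cells over both lines, with the line as a covariate, to ask whether suspension culture changed the members. By edgeR, 0 of 30 members passed, and 35 of 18372 genes (0.191%) did. At an unadjusted p under 0.05 there were 4 members, and DESeq2 called 2, TNFSF9 and TNFSF14. TNFSF9 was at 13.7 to 15.6 FPKM in H460 2D and 24.9 FPKM in H460 TS cells, and at 7.24 and 11.8 FPKM in A549 2D and TS cells. Its log2 fold change was 0.76 with an SE of 0.20 (edgeR adjusted p = 0.298, DESeq2 adjusted p = 0.00247). FAS, TNFRSF10B and TNFRSF10D had log2 fold changes of 0.45, 0.31 and 0.05, each with an edgeR adjusted p of at least 0.996. None of the 13 death-signaling or 28 NF-kappaB genes tested passed.

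In the single H460 TS library, TNFRSF1B was the 1 member over 2-fold higher, compared with 0.515% of all genes listed, and 0 were lower, compared with 0.526%. TNFRSF1B was at 0.188, 0.330 and 0.393 FPKM in 2D and 1.72 FPKM in TS culture, or 60, 92, 130 and 455 counts. Members near 1 FPKM can differ over 2-fold in FPKM without passing this cut. TNFSF12 did so, at 1.04 to 1.22 FPKM in 2D and 0.413 FPKM in TS culture, a log2(FPKM + 1) difference of -0.59. In the single A549 TS library 3 members were over 2-fold higher, compared with 1.82% of all genes listed, and 0 were lower, compared with 0.821%. TNFRSF11A, the receptor RANK, was at 1.03 FPKM in 2D and 5.34 FPKM in TS culture, TNFSF15 at 0.0626 and 4.05 FPKM, and TNFRSF11B at 0 and 2.36 FPKM.

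TNFRSF11B, the secreted decoy for RANKL and TRAIL, had different values by line and culture. H460 cells had 2310, 2348 and 2864 counts in 2D and 2106 in TS culture, whereas A549 cells had 0 in 2D and 401 in TS culture, at least 123-fold higher over a floor of 3 counts. The interaction of line and culture passed the edgeR test (edgeR adjusted p = 0.0141), for 1 of 34 members and 0.436% of 19941 genes. The other arms had 1 library each and the spread came from the 3 parental libraries alone, so lone libraries are assumed to vary like them, and the call was lost with limma (adjusted p = 0.304) and without the filter on low counts. TNFSF15 and TNFRSF11A had edgeR adjusted p of 0.0718 and 0.1 for this interaction, and DESeq2 adjusted p of 4.23e-08 and 0.000292.

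The A549 and H460 lines were then compared. In the fit above, with culture as a covariate, 10 of 30 members were higher in A549 cells and 7 were lower by edgeR, where 23.9% of 18372 genes passed, 14.4% as higher and 9.42% as lower. TNFRSF21 was at 20.9 and 34.7 FPKM in A549 2D and TS cells and at 1.63 to 2.86 FPKM in the 4 H460 libraries, with a log2 fold change of 3.51 and an SE of 0.30 (edgeR adjusted p = 0.00063). TNFRSF10D was at 14.2 and 8.59 FPKM in A549 and 1.81 to 2.74 FPKM in these H460 libraries (edgeR adjusted p = 0.00213), with a log2 fold change of 2.39 that was 1.67 without A549 2D. TNFRSF1A was at 140.8 and 150.0 FPKM in A549 and at most 67.7 FPKM in these H460 libraries (edgeR adjusted p = 0.0092). CD40, TNFSF12, TNFRSF11A and LTBR were higher in A549 cells too, with log2 fold changes of 3.14, 2.23, 2.96 and 0.78 (edgeR adjusted p = 0.0122, 0.0208, 0.0367 and 0.039). The size depended on single libraries for TNFSF12 and TNFRSF11A, whose log2 fold changes ran from 1.47 to 3.28 and from 1.48 to 4.88, lowest without H460 TS and highest without A549 2D. The low genes TNFRSF9, TNFRSF10C and TNFSF14 were also called higher, at no more than 285 counts, and entered the test through the A549 libraries alone.

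TNFRSF19 and CD70 were lower in A549 cells. TNFRSF19 was at 0.245 and 0.450 FPKM in A549 and 10.0 to 17.4 FPKM in the parental and TS libraries of H460, with a log2 fold change of -5.46 and an SE of 0.32 (edgeR adjusted p = 0.000178). CD70 was at 9.89 and 8.39 FPKM in A549 and 62.5 to 83.3 FPKM in these H460 libraries, with a log2 fold change of -2.87 and an SE of 0.25 (edgeR adjusted p = 0.00071). TNFSF4, TNFSF9, TNFRSF14 and TNFRSF1B were lower in A549 cells with log2 fold changes of -2.46, -1.06, -3.53 and -2.44 (edgeR adjusted p = 0.012, 0.0155, 0.023 and 0.0292), and TNFRSF8 had 0 counts in A549 against 8 to 155 in these H460 libraries. Without A549 2D the log2 fold change of TNFRSF1B was -3.43, and without either TS library it was -1.80 or lower. TNFRSF14 and TNFRSF8 entered the test through the H460 libraries alone. TNFRSF11B, despite its 0 counts in A549 2D cells, was not called by edgeR (adjusted p = 0.0707) but was by DESeq2 and limma (adjusted p = 0.00107 and 0.000542). FAS, TNFRSF10A and TNFRSF10B did not pass the test, with log2 fold changes of 0.21, 0.13 and 0.47 (edgeR adjusted p = 0.667, 0.842 and 0.161). Of the 17 calls, those of TNFRSF19, CD70, TNFRSF21 and TNFRSF10D held in every alternative, and A549 had only 2 libraries, 1 per culture. Each of the others was lost without at least 1 library, where without H460 TS or either A549 library the spread came from the 3 parental libraries alone. CD40, TNFSF4 and TNFRSF10C were lost without A549 2D (edgeR adjusted p = 0.0866, 0.076 and 0.14), TNFRSF1A and TNFSF9 without H460 TS or either A549 library (up to 0.0709 and 0.138), and LTBR without any 1 of the 6 libraries (up to 0.217). TNFSF12 was lost without parental replicate 2, H460 TS or A549 TS (up to 0.0707), TNFRSF14 without parental replicate 2, H460 TS or A549 2D (up to 0.137), and TNFSF14 without parental replicate 2 or A549 2D (up to 0.133). TNFRSF1B was lost without parental replicate 2 or 3 or either TS library (up to 0.166), TNFRSF11A without any parental library or A549 TS (up to 0.075), TNFRSF9 without any parental library or A549 2D (up to 0.368), and TNFRSF8 without any library but parental replicate 1 (up to 0.105).

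**Figure D4:**
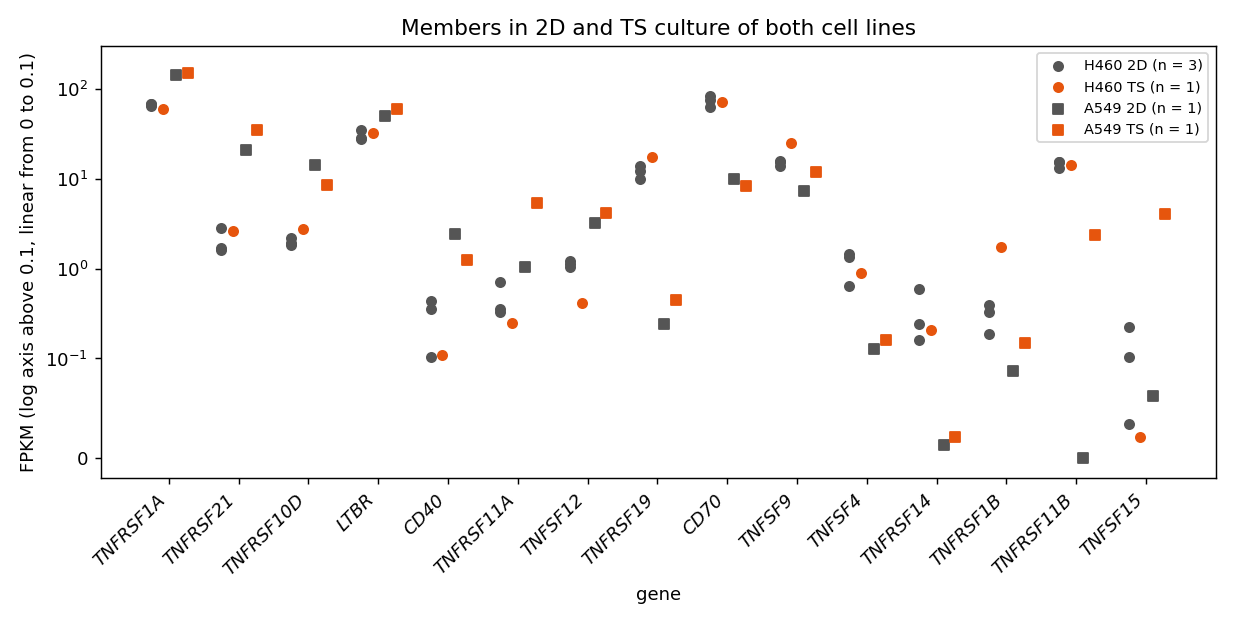
FPKM of 15 members in H460 (circles) and A549 (squares) cells, gray in 2D and orange in TS culture, with 1 point per library and an axis that is linear up to 0.1 and logarithmic above. TNFRSF19 and CD70 lie lower and TNFRSF21 and TNFRSF10D lie higher in A549 than in H460 cells, and TNFRSF11B is at 0 in A549 2D cells and at 2.36 FPKM in A549 TS cells.

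Behind the receptors, A549 cells had more FADD and CFLAR, with log2 fold changes of 1.16 and 1.00 (edgeR adjusted p = 0.0157 and 0.0299). Of 28 NF-kappaB genes, 6 were higher and 1 was lower, a share close to the 23.9% of all genes tested, and the lower one was TNFAIP3, a deubiquitinase that limits TNF signaling, with a log2 fold change of -4.20 (edgeR adjusted p = 0.00344).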

How the data were processed

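RNA sequencing values of 10 cultures were used as deposited. The submitters' processing notes name bcl2fastq 1.8.4, Trimmomatic, HISAT2 2.1.0, StringTie 2.1.3b and the build GRCh38. Per gene, the authors gave read counts in whole numbers that had not been normalized. FPKM values came from the authors' scaling of these data for transcript length and library size, and the TPM values deposited by the authors, which sum to the same total in each library, were not used. Strand and the handling of shared reads are not given in the sources used here, and a count may not be 1 independent read, so floors cover counting error only.

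Counts were tested with edgeR 4.0.16 (TMM, filterByExpr, glmQLFit and glmQLFTest) in R 4.3.3, with Benjamini-Hochberg adjustment over all genes and a threshold of 0.05. Single libraries were compared as log2(FPKM + 1), where a difference over 1 was counted, which understates the change of low genes. Alternatives were DESeq2 1.42.0, limma 3.58.1 on log2(FPKM + 1) with an FPKM of at least 1, other scalings, no filter, a pseudocount of 0.1, single parental controls, the form of library name, a replicate block, and each library left out. The fits were tested on simulated data. Python 3.11.15, numpy 2.4.6, pandas 2.3.3, scipy 1.17.1 and matplotlib 3.10.9 were used otherwise.

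The members and gene lists were chosen with earlier results of these data known. Named with values are members that reached 1 FPKM, and the others are given by name, count or range. Gene positions and promoters are those of RefSeq on GRCh38.p14, where all 43 members matched the gene table by NCBI Gene identifier and 28 had a promoter. Pairs of parental and of PR replicates had a chi-square per gene of 62.8 to 268.8, so none of these was a copy of another. Results of some genes of the lists are not reported here.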

Additional observations from a re-analysis of the deposited data

Results flagged for a closer look

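TNFRSF19, known as TROY, stood apart within the 4 drug-resistant libraries. PR replicate 1 was at 24.8 FPKM, while CR, PR replicate 2 and DR were at 17.6, 16.6 and 17.2 FPKM, and the gap took a share of 0.863 of the range, above the critical value for 4 samples. It was the only one of 20 members examined to do so, and chance gives about 1 in 20.

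TNFRSF11B, osteoprotegerin, had an edgeR adjusted p of 0.0141 for the interaction of line and culture, which limma and the fit without the filter did not call. The 2D library of A549 had 0 counts and the TS library 401, and each line had 1 TS library.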

How the results depend on the processing

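The number of members called was 15 in drug-resistant against parental cells and stayed within 1.5 times of that in every alternative, from 10 to 17 with 1 library left out. Upper-quartile scaling moved the median over all genes there from a log2 fold change of 0.06 to 0.23 and the share of higher calls from 54.6% to 67.4%, and for PR against parental cells from 0.05 to 0.30 and from 62.2% to 75.9%. In PR against parental cells the 17 calls became 9 with limma and 9 to 19 with 1 library left out. PR against CR and DR cells gave 0 calls by edgeR, 3 with DESeq2, 1 with limma and 4 without the filter on low counts. TS against 2D cells gave 0 calls by edgeR, 2 with DESeq2 and 0 to 2 with 1 library left out, the 2 arising without H460 TS. A549 against H460 cells gave 17 calls, 11 with limma and 9 to 15 with 1 library left out, the 9 without parental replicate 2. The interaction gave 1 call, 3 with DESeq2, 0 with limma, 0 without the filter and 1 to 4 with 1 parental library left out, the 4 without parental replicate 1. With a pseudocount of 0.1 the members over 2-fold apart rose from 6 to 11 in CR, from 1 to 4 in H460 TS and from 3 to 9 in A549 TS cells. With parental replicate 2 or 3 alone as the control, H460 TS cells had 2 or 0. The cause of these changes was not tested.

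PR and parental replicates share the numbers 1 and 2 in the labels. A fit with the replicate block over all PR and parental libraries called 14 members, 12 higher and 2 lower. Parental replicate 3 stood alone in its block there. A fit of replicates 1 and 2 only, without the block, called 18. The 2 fits tested 20800 and 19179 genes, so their counts differ by more than the block. With the block, TNFSF9, TNFRSF9, TNFRSF10C, TNFRSF18 and TNFSF11 were not called. Their deviations correlated at 0.156 across 12593 genes, but 2 pairs do not establish a pairing. No called member changed direction in an alternative. CR, DR, each TS culture and A549 2D cells had 1 library. The number of libraries and, for members under 1 FPKM, the depth may limit the precision, which was not tested.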
